A study of Rattus norvegicus with 24 samples.

Results

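The sciatic nerve of Pmp22 transgenic rats (Tg) was followed from embryonic day 21 (E21) to postnatal day 6 (P6), the days around birth in which Schwann cells begin to myelinate. The sample labels chose the libraries: 4 labelled Tg at E21 and 4 labelled Tg at P6, which makes 8 of the 24 libraries of the series. The series also holds wild-type (Wt) rats, 4 libraries at E21 and 4 at P6, used here for comparison, and both genotypes at P18. All 24 libraries entered the statistical model, the choice of genes to test and a check for copies, and the P18 libraries had no other use. All groups were sciatic nerve of rat with the epineurial compartments taken off before freezing, read as polyA RNA in single 50 bp reads. The Tg rat, the line SD-Tg(Pmp22)Kan in the study's methods, carries a Pmp22 transgene in its germline beside its own gene, so the transgene is not confined to Schwann cells, and the nerve holds fibroblasts, vessels and blood cells beside them. The 4 E21 libraries had totals of 17314549, 19239240, 20573352 and 15123110 counts, and the 4 P6 libraries had 15156424, 21315997, 16908903 and 24126945. Levels are given as CPM, a gene's counts relative to its library's total after scaling by edgeR's trimmed mean of M-values, and changes as log2 fold changes of P6 over E21 from edgeR's quasi-likelihood test. A gene was called when its p-value, adjusted by the Benjamini-Hochberg method over 15951 tested genes, was under 0.05.

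A myelinating Schwann cell wraps 1 segment of 1 axon and builds a membrane rich in cholesterol and galactolipids, held together by a small set of proteins made in large amounts. The program is switched on by the transcription factor Egr2, follows signals from the axon and from the basal lamina, and goes along with exit from the cell cycle and loss of the immature Schwann cell genes. Pmp22 is itself a protein of compact myelin, and an additional dose of it causes a demyelinating neuropathy.

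Genes of the genotype and the tissue were set beside the labels. Pmp22 had 1555, 1661, 1401 and 1617 CPM at E21 and 26462, 23982, 24039 and 24864 CPM at P6 in the Tg libraries. In the libraries labelled Wt it had 1392, 1309, 1261 and 1259.8 CPM at E21 and 22924, 23991, 22820.4 and 22671 CPM at P6, so every Tg library lay above every Wt library at E21, while the genotypes overlapped at P6. Reads were aligned to the rat genome, and how much of the transgene's RNA these counts take in was not tested. AC130064.1, a gene model without a symbol, separated the labels at both ages: it had 7, 12, 11 and 13 counts in the E21 Tg libraries and 223, 276, 231 and 243 in the P6 Tg libraries, and 0 in all 8 Wt libraries. It was named with earlier results of these data known, so its separation does not test the labels. In CPM it went from a range of 0.381 to 0.8 CPM at E21 to one of 9.73 to 14.6 CPM at P6, without overlap, a log2 fold change of 4.46 (SE 0.25). For the tissue, Schwann cell markers were looked at, of which 10 were tested and Foxd3 was not analysed here. None of the 10 was at 0 in all 8 libraries. The same held for the muscle markers below, so presence alone does not test the tissue label. S100b, for instance, had 225, 205, 156 and 190.5 CPM at E21 and 602, 476, 491 and 542 CPM at P6, and Erbb3 had 697, 735, 585 and 725 CPM at E21 and 981, 1086, 1010.0 and 1046 CPM at P6. Of these 10 tested markers 6 rose, 3 fell and 1 was not called, with a median log2 fold change of 0.75. In a whole nerve, fewer cells of a type and less RNA per cell cannot be told apart, which holds for every change below.

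Some libraries stood apart from the others of their age. The summed level of 21 skeletal muscle markers was 46.7, 5725, 913 and 52.1 CPM at E21, high in replicate 2 and, less so, in replicate 3, against 191, 55.8, 92.5 and 55.8 CPM at P6. Acta1, the actin of skeletal muscle fibres, was the most abundant of them, and none was at 0 in all 8 libraries. The E21 Wt libraries spread in a like manner, with 34.9, 2367, 51.2 and 3411 CPM. On the first principal component of the 8 libraries, with 71.5% of the variance, E21 lay apart from P6, and on the second, with 12.1%, E21 replicate 2 lay farthest from E21 replicates 1 and 4, with replicate 3 between them. Kdm5d and Eif2s3y, both Y-linked, differed between libraries of 1 age without any sex in the labels: Kdm5d had 19.1, 0.0485, 25.4 and 23.2 CPM at E21 and 27.6, 0, 0 and 17.5 CPM at P6, and Eif2s3y had 41.1, 0.097, 53.1 and 46.4 CPM at E21 and 42.9, 0, 0.0578 and 26.1 CPM at P6. Sry was at 0 in all 8 libraries. What the muscle signal or the spread of the Y-linked genes adds to other genes was not tested.

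Many genes rose and many fell. From E21 to P6, 4221 of 15951 tested genes (26.5%) were called higher in Tg and 4426 (27.7%) lower, and the median log2 fold change over all tested genes was 0.0032. With a change of at least 2-fold in addition, 1493 (9.36%) were higher and 1249 (7.83%) lower. The 4 P6 libraries lay above all 4 E21 libraries for 4067 genes (25.5%) and below all 4 for 4162 (26.1%), where chance gives 1.43% in each direction. These shares are the background against which the gene groups below are counted. Without E21 replicates 2 and 3, an alternative chosen after the values were seen, 7288 genes were called, 6985 of them among the 8647 called with all libraries.

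The proteins of the myelin sheath rose together. All 20 tested members of the myelin structural protein list were called higher at P6, 17 of them at least 2-fold, with no overlap between the ages for any of the 20 and a median log2 fold change of 3.23. Pmp22, whose values are given above, rose 15.9-fold without overlap (log2 fold change 3.99, SE 0.079; adjusted p = 8.7e-21 by edgeR). Mbp, which draws the cytoplasmic faces of the membrane together, had 685, 735, 570.0 and 750.4 CPM at E21 and 14811, 13670.4, 12062 and 13623 CPM at P6. Its log2 fold change was 4.31 (SE 0.12), again with the ages apart. The steepest rises came from proteins of the channels and outer rim of the sheath. Ncmap, a membrane protein of noncompact myelin, had no count in any of the 4 E21 libraries and 127, 100.2, 74.5 and 91.5 CPM at P6, which makes it at least 624-fold higher when 3 counts per library are taken as the floor at E21, a bound that covers counting error only. Drp2, which ties periaxin to dystroglycan under the outer membrane, had 2.67, 3.1, 4.23 and 4.8 CPM at E21 and 461, 419, 409 and 409 CPM at P6 (log2 fold change 6.85, SE 0.13). Gjb1, the gap junction protein connexin 32, had 0.326, 1.21, 0.46 and 0.677 CPM at E21 and 58.9, 48.4, 53.8 and 49.1 CPM at P6 (log2 fold change 6.27, SE 0.19). Both were low in every E21 library and far higher in every P6 library. The smallest rises of the list were those of Arhgef10 (0.40), Fgd4 (0.48) and Mtmr2 (0.56), 3 genes mutated in inherited demyelinating or slow-conduction neuropathies whose products are not structural parts of the sheath.

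**Figure D1:**
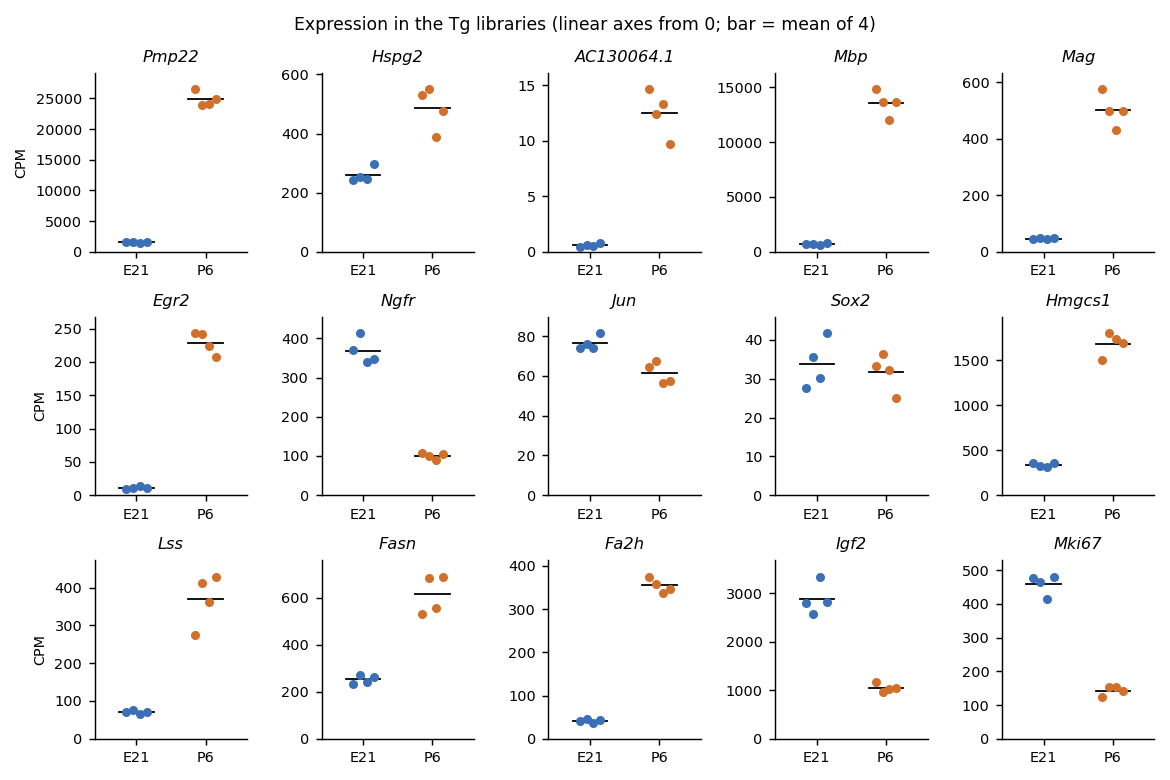
CPM of 15 genes in the 4 E21 and 4 P6 Tg libraries (points; bar, mean of 4) on linear axes from 0. The ages do not overlap for 14 of them, among them Pmp22 (1401 to 1661 against 23982 to 26462 CPM), while Sox2 (27.6 to 41.8 against 25.15 to 36.3 CPM) overlaps.

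The junctions between axon and Schwann cell changed in both directions. Of 16 tested members of the axoglial junction and node list, 9 rose, 6 fell and 1 was not called, 7 and 3 of them at least 2-fold, with a median log2 fold change of 0.47. The largest rises were those of adhesion proteins of the node and paranode. Nfasc, which binds contactin and gliomedin at these sites, had 2.18, 1.84, 1.15 and 1.6 CPM at E21 and 319, 288, 265 and 308 CPM at P6, apart in all 8 libraries (log2 fold change 7.45, SE 0.13; adjusted p = 5.0e-21 by edgeR). Gldn, the Schwann cell ligand that gathers sodium channels at the node, had 11.5, 17.4, 12.3 and 9.53 CPM at E21 and 470.0, 452, 456 and 447 CPM at P6 (log2 fold change 5.16, SE 0.17). Nrcam, its partner at the node, went from a range of 6.99 to 10.3 CPM at E21 to one of 107 to 113 CPM at P6 (log2 fold change 3.67, SE 0.11). Among members whose normalized counts averaged 50 or more, the largest falls were those of the adhesion molecule Ncam1 (log2 fold change -1.70, SE 0.078; 274 to 368 CPM at E21 and 99.7 to 106 CPM at P6), of the membrane skeleton protein Epb41l3 (-1.65, SE 0.058) and of the channel anchor Ank3 (-0.70, SE 0.059), each without overlap between the ages. Below that count Cntn1, an axonal contactin, fell too (-1.13, SE 0.33). Sptbn1, a spectrin, fell by 0.22 on the log2 scale.

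Among the transcription factors of myelination, Egr2 moved most. It had 8.59, 10.9, 13.3 and 10.3 CPM at E21 and 243, 241, 224 and 207 CPM at P6, a 21.2-fold rise without overlap (log2 fold change 4.40, SE 0.17; adjusted p = 1.2e-15 by edgeR). Pou3f2, a POU factor that acts before Egr2, had 3.7, 3.78, 4.83 and 4.86 CPM at E21 and 17.5, 18.7, 16.9 and 19.7 CPM at P6 (log2 fold change 2.08, SE 0.16), while Pou3f1 was not analysed here. These 2 were the only members of the list called at least 2-fold higher. In all, 7 of 16 tested members rose, 6 fell and 3 were not called, 5 rose and 5 fell without overlap, and the median was 0.16. That median was 0.10 without E21 replicate 3, 0.11 without P6 replicate 2, 0.10 with library totals for scaling and 0.067 without E21 replicates 2 and 3. Srebf1, which drives fatty acid genes, rose from a range of 36.8 to 46.5 CPM at E21 to one of 62 to 85.7 CPM at P6 (log2 fold change 0.91, SE 0.20), and Srebf2, which drives sterol genes, had a smaller log2 fold change of 0.31 with overlapping ages. Sox10, which marks the lineage throughout, ran from 191 to 262 CPM at E21 and from 240.1 to 311 CPM at P6 and was not called. The lowest log2 fold changes were those of the Egr2 corepressor Nab2 (-0.41, SE 0.10), of Nfatc4 (-0.38, SE 0.15) and of Ets1 (-0.35, SE 0.086). The call of Nfatc4 was lost without E21 replicate 3 (-0.29) and under 4 further alternatives.

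Most genes of the immature Schwann cell fell. Of 19 tested members 15 fell, 11 of them at least 2-fold and 12 without overlap, 2 rose and 2 were not called, and the median log2 fold change was -1.04. Ngfr, the neurotrophin receptor p75, had 370.4, 414, 339 and 348 CPM at E21 and 108, 100.1, 90.9 and 106 CPM at P6 (log2 fold change -1.86, SE 0.10; adjusted p = 3.8e-13 by edgeR). Every P6 library stood far below every E21 library. Hey2, a target of Notch, had 15.8, 7.42, 13.1 and 12.3 CPM at E21 and 1.77, 2.3, 2.48 and 2.44 CPM at P6 (log2 fold change -2.42, SE 0.25). Cdh2, the cadherin that holds Schwann cell precursors together, went from a range of 111 to 144 CPM at E21 to one of 32.2 to 38.6 CPM at P6 (log2 fold change -1.80, SE 0.091), and L1cam, an adhesion molecule kept by non-myelinating cells, from a range of 205 to 262 CPM at E21 to one of 90.8 to 105 CPM at P6. Jun and Sox2 both encode inhibitors of myelination. Jun had 74, 75.9, 74 and 81.6 CPM at E21 and 64.5, 67.7, 56.3 and 57.3 CPM at P6, apart between the ages by a small margin (log2 fold change -0.31, SE 0.11; adjusted p = 0.0179 by edgeR), and its call was lost without P6 replicate 3 or without P6 replicate 4 (-0.27 in both fits). Sox2 had 27.6, 35.7, 30.1 and 41.8 CPM at E21 and 33.2, 36.3, 32.2 and 25.15 CPM at P6, which overlap, and was not called (log2 fold change -0.092, SE 0.14; adjusted p = 0.608 by edgeR). The list's 2 rises were those of the cadherin Cdh19 (log2 fold change 0.91, SE 0.13) and of the neuregulin receptor Erbb3 (0.59, SE 0.060), which also serve mature Schwann cells.

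The ligands and receptors through which axon and matrix act on myelination were split. Of 20 tested members 8 rose, 6 fell and 6 were not called, the median was 0.16, and 1 member in each direction passed 2-fold. The median was 0.093 without E21 replicate 2, 0.094 without replicate 3, 0.10 with library totals for scaling and 0.0037 without both replicates. Gpr37l1, an orphan receptor, had 17, 21.4, 21.1 and 24.4 CPM at E21 and 137, 139, 109 and 131 CPM at P6 (log2 fold change 2.62, SE 0.12). It was the only member of the list at least 2-fold higher at P6. The laminin receptor subunit Itga6 (0.87, SE 0.063) and dystroglycan, Dag1 (0.73, SE 0.070), followed it. Ntrk3, the receptor of neurotrophin 3, went from a range of 80.8 to 99.8 CPM at E21 to one of 40.9 to 46.6 CPM at P6 (log2 fold change -1.07, SE 0.14), and Igf1r, the receptor of insulin-like growth factors, had -0.94 (SE 0.14). Adgrg6, the adhesion receptor needed to start myelination, had 308, 311, 262 and 317 CPM at E21 and 153, 166, 169 and 159 CPM at P6, with E21 replicate 3 below the other E21 libraries and still above every P6 library (log2 fold change -0.89, SE 0.086). Nrg1, the axonal signal read by Erbb3, had 2.76 to 4.46 CPM at E21 and 3.2 to 5.05 CPM at P6 and was not called, in a tissue from which the cell bodies of the neurons are absent.

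Genes of the basal lamina moved in both directions. Of 20 tested members 8 rose, 8 fell and 4 were not called, and the median log2 fold change was -0.064. Leaving out E21 replicate 1 or 2 made it -0.13 or -0.11, leaving out P6 replicate 1, 2 or 3 made it -0.10, -0.10 or -0.030, and library totals for scaling made it -0.12, all below 0. Hspg2, the heparan sulfate proteoglycan perlecan, had 242, 252, 245 and 297 CPM at E21 and 529, 549, 387 and 475 CPM at P6. The P6 libraries lay above all E21 libraries, a 1.87-fold rise (log2 fold change 0.91, SE 0.17; adjusted p = 1.0e-04 by edgeR). In the Wt libraries Hspg2 had 103, 76.4, 106 and 117 CPM at E21 and 305, 382, 436 and 369 CPM at P6, so at E21 every Tg library stood above every Wt library, and at P6 the genotypes overlapped. Its step in Tg differed from that in Wt by a log2 difference of -0.99 (95% interval -1.48 to -0.49), with an unadjusted p of 4.7e-04 and an adjusted p of 0.374 in edgeR's test of the difference, which it did not pass, whereas DESeq2 called it. Col28a1, a collagen of the Schwann cell surface, had 2.99, 3.44, 5.11 and 6.83 CPM at E21 and 165, 176, 208 and 177 CPM at P6 and was the only member at least 2-fold higher (log2 fold change 5.32, SE 0.23). The laminin chain Lama4 fell furthest, from a range of 1144 to 1397 CPM at E21 to one of 735 to 831 CPM at P6 (log2 fold change -0.73, SE 0.067), while Lama2, the chain of the mature Schwann cell laminin, rose (0.28), and the shared chains Lamb1 (0.031) and Lamb2 (0.002) were not called. Col18a1 (-0.42, SE 0.12) and the linker Nid1 (-0.42, SE 0.075) were lower at P6 in all 4 libraries.

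Cholesterol synthesis rose along almost its whole length. Of 24 tested members 23 rose, all without overlap and 18 at least 2-fold, 1 fell, and the median log2 fold change was 1.28. Hmgcs1, the synthase at the head of the mevalonate path, had 355, 324, 315 and 357 CPM at E21 and 1499.9, 1800.1, 1736 and 1688 CPM at P6 (log2 fold change 2.32, SE 0.10; adjusted p = 6.1e-15 by edgeR). It was apart between the ages in all 8 libraries. Lss, which closes the sterol rings as lanosterol synthase, had 69.6, 76.4, 65.1 and 71.1 CPM at E21 and 274, 412, 363 and 429 CPM at P6 (log2 fold change 2.39, SE 0.12). The 2 sterol C14 reductases of the list went opposite ways. Tm7sf2, the enzyme of the endoplasmic reticulum, had 13, 10.5, 11 and 10.8 CPM at E21 and 48.4, 54.3, 47.7 and 51.5 CPM at P6 (log2 fold change 2.16, SE 0.10), and Lbr, which is also the lamin B receptor of the inner nuclear membrane, had 46.5, 44.6, 41.8 and 45.2 CPM at E21 and 20.9, 24.6, 23.7 and 26.3 CPM at P6 (log2 fold change -0.90, SE 0.091) and was the only member that fell. The smallest rise was that of the epoxidase Sqle (0.62).

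The promoters of these genes are shown because the members rose together and a common regulator of sterol genes, SREBP, works beside the factor NF-Y, which binds CCAAT. The sequences run from 250 bases before to 50 after the start, 5′ to 3′ on the gene's strand, from RefSeq on build GRCr8: Hmgcs1 chr2:53382054-53382353 (+), Lss chr20:12118181-12118480 (-) and Tm7sf2 chr1:212789492-212789791 (-). Capitals mark CCAAT on either strand, read as ATTGG where it lies on the other.
Hmgcs1: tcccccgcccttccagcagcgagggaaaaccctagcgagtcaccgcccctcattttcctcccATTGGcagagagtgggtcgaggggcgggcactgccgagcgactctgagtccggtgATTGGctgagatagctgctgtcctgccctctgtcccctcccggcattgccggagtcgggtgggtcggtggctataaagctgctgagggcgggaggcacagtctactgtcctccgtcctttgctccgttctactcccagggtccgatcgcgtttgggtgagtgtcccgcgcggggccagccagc
Lss: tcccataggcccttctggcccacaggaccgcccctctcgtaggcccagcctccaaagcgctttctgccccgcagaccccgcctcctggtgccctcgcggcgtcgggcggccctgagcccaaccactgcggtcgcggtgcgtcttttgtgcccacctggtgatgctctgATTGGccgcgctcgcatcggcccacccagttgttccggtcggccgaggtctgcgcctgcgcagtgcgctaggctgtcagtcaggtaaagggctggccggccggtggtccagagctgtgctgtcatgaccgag
Tm7sf2: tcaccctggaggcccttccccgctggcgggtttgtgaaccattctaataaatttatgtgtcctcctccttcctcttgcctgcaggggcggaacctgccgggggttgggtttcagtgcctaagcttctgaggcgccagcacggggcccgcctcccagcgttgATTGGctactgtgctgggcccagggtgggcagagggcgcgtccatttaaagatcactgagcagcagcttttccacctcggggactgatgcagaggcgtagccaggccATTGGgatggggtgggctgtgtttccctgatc

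Of the 24 cholesterol genes 17 matched a promoter, and 14 of the 17 held CCAAT on either strand, which 37.7% of all 27457 promoters did. Among lists in which more members fell than rose, the counts ran from 2 of 14 for fetal growth to 12 of 15 for the unfolded protein response and 5 of 5 for MHC class II. TCACNCCAC, a form of the sterol regulatory element, was in 0 of the 17 and in 1.13% of all promoters, which says only that these letters are not in these windows. Hmgcs1 and Tm7sf2 each held 2 matches and Lss held 1, all on the other strand. A match describes letters and says nothing of binding.

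**Figure D2:**
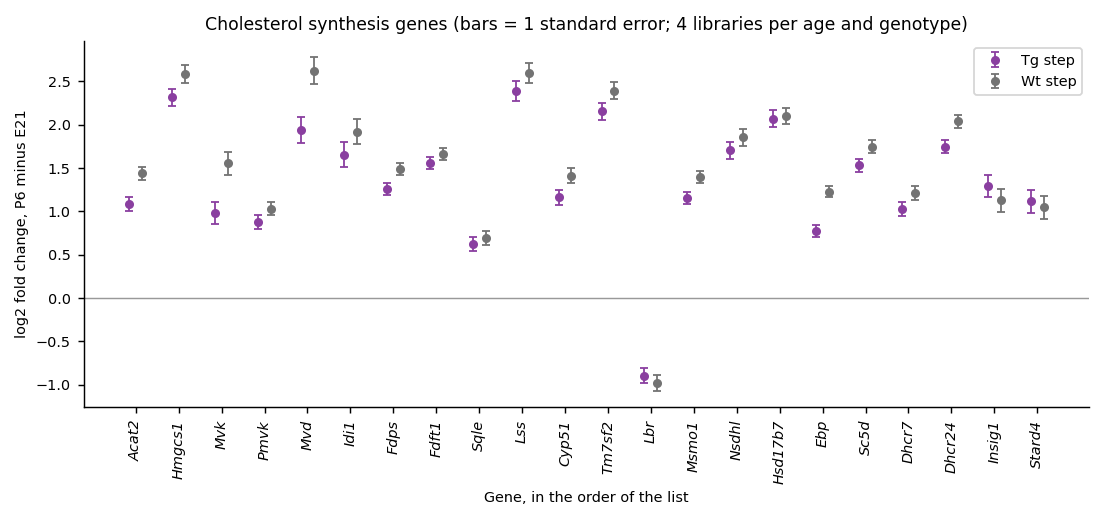
Log2 fold change from E21 to P6 of 22 of the 24 tested cholesterol synthesis genes in Tg and in Wt (points; bars, 1 standard error; 4 libraries per age and genotype). In Tg, 21 of the 22 drawn lie above 0, up to 2.39 for Lss, and Lbr lies below it at -0.90.

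Fatty acid synthesis rose less evenly. Of 23 tested members 15 rose, 8 of them at least 2-fold, 4 fell and 4 were not called, with a median log2 fold change of 0.55. Elovl7, an elongase of long saturated chains, had 0.87, 1.07, 0.69 and 1.6 CPM at E21 and 69.5, 57.2, 74 and 62.9 CPM at P6 (log2 fold change 5.98, SE 0.20; adjusted p = 9.3e-17 by edgeR), low in every E21 library and clear of 0 in every P6 library. Scd1, a desaturase of adipose tissue and liver, had 22.1, 15.1, 12.2 and 15.6 CPM at E21 and 42.3, 155, 161 and 147 CPM at P6, with P6 replicate 1 far below the other P6 libraries (log2 fold change 2.96, SE 0.39). Scd2, the desaturase of nervous tissue, went from a range of 2328 to 2846 CPM at E21 to one of 5619 to 6272 CPM at P6 (1.16). Fasn, the fatty acid synthase, had 235, 271, 244 and 263 CPM at E21 and 531, 683, 555 and 690.2 CPM at P6 (log2 fold change 1.28, SE 0.10), and the synthetase Aacs, which feeds ketone bodies into lipid, had 2.004 (SE 0.12). The members that fell most were the elongases of very long polyunsaturated chains Elovl2, from a range of 25.6 to 41 CPM at E21 to one of 7.55 to 18.5 CPM at P6 (log2 fold change -1.41, SE 0.26), and Elovl4 (-0.91, SE 0.18), and the malic enzyme Me1 (-0.80, SE 0.21), whose ages overlapped. The list's summed level was lower in E21 replicate 3 than in the other E21 libraries.

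The list of galactolipid and sphingolipid synthesis had 10 of 16 tested members higher, 3 lower and 3 not called, with a median of 0.35. Ugt8, which puts galactose on ceramide to make the main glycolipid of myelin, had 147, 137, 113 and 145 CPM at E21 and 1422, 1221, 1353 and 1160.2 CPM at P6 (log2 fold change 3.25, SE 0.12; adjusted p = 3.0e-16 by edgeR). Fa2h, which hydroxylates the fatty acids of myelin galactolipids, had 40.8, 45.1, 35.7 and 43.2 CPM at E21 and 375, 359, 337 and 347 CPM at P6 (log2 fold change 3.11, SE 0.068), and Gal3st1, which makes sulfatide, had 9.84, 11.2, 9.62 and 8.67 CPM at E21 and 43.9, 36.3, 31.7 and 34.6 CPM at P6 (log2 fold change 1.89, SE 0.19). All 3 were higher in every P6 library than in any E21 library. The 3 members that fell were Ugcg, which puts glucose on ceramide (-0.44, SE 0.060), B4galt6, which adds galactose to it (-0.53, SE 0.087), and St3gal5, which makes the ganglioside GM3 (-0.90, SE 0.075), all without overlap. Cers2, the ceramide synthase of very long chains, rose (1.05), and Cers6, a synthase of C16 chains, was not called (-0.48).

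Phospholipid and plasmalogen synthesis had 15 of 22 tested members higher, 5 of them at least 2-fold, 3 lower and 4 not called, with a median of 0.47. The phosphatidate phosphatases parted: Lpin1 had 5.66, 4.41, 2.85 and 3.26 CPM at E21 and 13.8, 20.3, 15.3 and 19 CPM at P6 (log2 fold change 2.08, SE 0.18), and Lpin2 had 75.4, 64.5, 68.3 and 71.2 CPM at E21 and 30.7, 31.1, 38 and 33.6 CPM at P6 (log2 fold change -1.07, SE 0.073). Neither overlapped between the ages. Of the peroxisomal enzymes that start plasmalogen synthesis, Agps rose from a range of 15.4 to 21.1 CPM at E21 to one of 41.7 to 46.7 CPM at P6 (log2 fold change 1.23, SE 0.16), while Gnpat had -0.21 (SE 0.050), with P6 replicate 1 lowest. For phosphatidylcholine, Pcyt1b rose (1.21, SE 0.15), though E21 replicate 1 stood above the other E21 libraries, its relative Pcyt1a was not called (-0.047), and Cept1, of the last step, fell (-0.39, SE 0.094).

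Genes of the cell cycle fell without exception among those tested. All 33 tested members of the list were called lower at P6, 31 at least 2-fold, with no overlap between the ages for any of the 33, and the median log2 fold change was -1.81. Mki67, which marks cycling cells, had 477, 464, 415 and 481 CPM at E21 and 124, 154, 153 and 140.3 CPM at P6 (log2 fold change -1.69, SE 0.079; adjusted p = 3.7e-14 by edgeR). The furthest falls were those of cyclin E1, Ccne1, with 37.6, 56.3, 41.8 and 43 CPM at E21 and 9.12, 10.8, 11.4 and 10.5 CPM at P6 (log2 fold change -2.09, SE 0.16), of Birc5, which encodes survivin of the mitotic spindle (-2.04, SE 0.15), and of Rrm2, a subunit of ribonucleotide reductase (-1.98, SE 0.19). The 6 minichromosome maintenance genes of DNA replication had log2 fold changes from -1.04 for Mcm7 to -1.94 for Mcm5, and 2 genes of the mitotic checkpoint, Bub1 and Bub1b, had -1.93 and -1.89. The smallest falls were those of cyclin D1, Ccnd1 (-0.33), and of the kinase Aurka (-0.87), the members that missed 2-fold.

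The promoters of Mki67 and Birc5 are shown because all members fell together and cell cycle genes share the letters TTTGAA of the cell cycle homology region. They come from RefSeq on build GRCr8 over the same 300 bases, 5′ to 3′ on the gene's strand: Mki67 chr1:199952544-199952843 (-) and Birc5 chr10:103571896-103572195 (+). Capitals mark TTTGAA.
Mki67: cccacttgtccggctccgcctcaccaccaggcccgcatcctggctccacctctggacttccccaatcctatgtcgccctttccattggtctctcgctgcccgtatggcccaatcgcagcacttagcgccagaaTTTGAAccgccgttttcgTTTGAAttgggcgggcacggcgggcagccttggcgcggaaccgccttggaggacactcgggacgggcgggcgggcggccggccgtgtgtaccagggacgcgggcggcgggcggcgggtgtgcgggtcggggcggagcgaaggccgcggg
Birc5: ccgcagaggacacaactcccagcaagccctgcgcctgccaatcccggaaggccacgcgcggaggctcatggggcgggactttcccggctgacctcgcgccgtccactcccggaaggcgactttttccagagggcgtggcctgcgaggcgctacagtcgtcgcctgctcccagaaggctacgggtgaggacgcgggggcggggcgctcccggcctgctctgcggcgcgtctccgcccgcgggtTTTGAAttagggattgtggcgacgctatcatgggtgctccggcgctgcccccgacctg

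Of the 34 listed cell cycle genes 26 matched a promoter, and 13 of the 26 held TTTGAA on either strand, which 18.1% of all promoters did. CCAAT was in 19 of the 26.

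Genes of fetal growth fell as well. All 13 tested members of the list of fetal growth and imprinted genes were lower at P6 without overlap, 12 of them at least 2-fold, with a median of -1.55. Igf2, the fetal growth factor, had 2788, 2572, 3342 and 2809.7 CPM at E21 and 1163, 967, 1020.3 and 1040.4 CPM at P6 (log2 fold change -1.46, SE 0.10; adjusted p = 2.9e-11 by edgeR). The furthest falls were those of the RNA-binding protein Igf2bp1, from a range of 3.998 to 6.16 CPM at E21 to one of 0.656 to 1.04 CPM at P6 with E21 replicate 4 below the other E21 libraries (log2 fold change -2.62, SE 0.39), of Dlk1, an imprinted surface protein (-2.30, SE 0.16), and of the imprinted cell cycle inhibitor Cdkn1c (-2.13, SE 0.15). Cdkn1c had 268, 319, 314 and 221 CPM at E21 and 64.5, 66.9, 65.7 and 59.2 CPM at P6. Igf2bp2, which unlike its relatives stays on after birth, fell least (-0.41).

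The unfolded protein response did not rise in any tested member of its list. Of 17 tested members 13 were lower at P6, 12 of them without overlap, 0 were higher and 4 were not called, with a median log2 fold change of -0.64. Hspa5, the main chaperone of the endoplasmic reticulum, had 788, 1007, 1081 and 1289 CPM at E21 and 581, 601, 647 and 570.5 CPM at P6 (-0.80). Atf3, an early response factor, had 77.3, 81.2, 65 and 79.5 CPM at E21 and 20.7, 26.9, 22.9 and 22.9 CPM at P6 (log2 fold change -1.69, SE 0.10; adjusted p = 9.9e-13 by edgeR), and the disulfide isomerases Pdia4 (-1.16, SE 0.050) and Pdia6 (-0.91, SE 0.049) were the next lowest. The members not called were Atf4 (0.12), Herpud1 (-0.015), Chac1 (-0.037) and Asns (0.15). Ddit3, the factor CHOP, had 9.03, 8.87, 11 and 12.3 CPM at E21 and 8.99, 8.4, 7.62 and 9.05 CPM at P6, a small fall with overlapping ages (-0.27).

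In the fibrillar matrix more members fell than rose. Of 20 tested members 10 fell, 8 of them without overlap, 1 rose and 9 were not called, with a median of -0.29, which went to -0.46 without E21 replicate 2 and to -0.16 without E21 replicate 3. Col1a1 had 10954, 12157, 15872 and 13481 CPM at E21 and 14528, 11441, 11664 and 12202 CPM at P6, and Col3a1 had 15439, 14272, 19418 and 17104 CPM at E21 and 20588, 15209, 16887 and 17214 CPM at P6. Both overlapped and were not called. Tnc, the matrix glycoprotein of developing tissue, had 541, 578, 548 and 628 CPM at E21 and 161, 167, 179.5 and 167 CPM at P6 (log2 fold change -1.77, SE 0.12; adjusted p = 2.9e-11 by edgeR). Fbln1 (-1.20, SE 0.14) and the fetal fibrillin Fbn2 (-0.83, SE 0.13) fell too, and Sparc, which binds collagen, was the list's only rise (0.55, SE 0.083; 4609 to 5162 CPM at E21 and 6515 to 7763 CPM at P6).

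**Figure D3:**
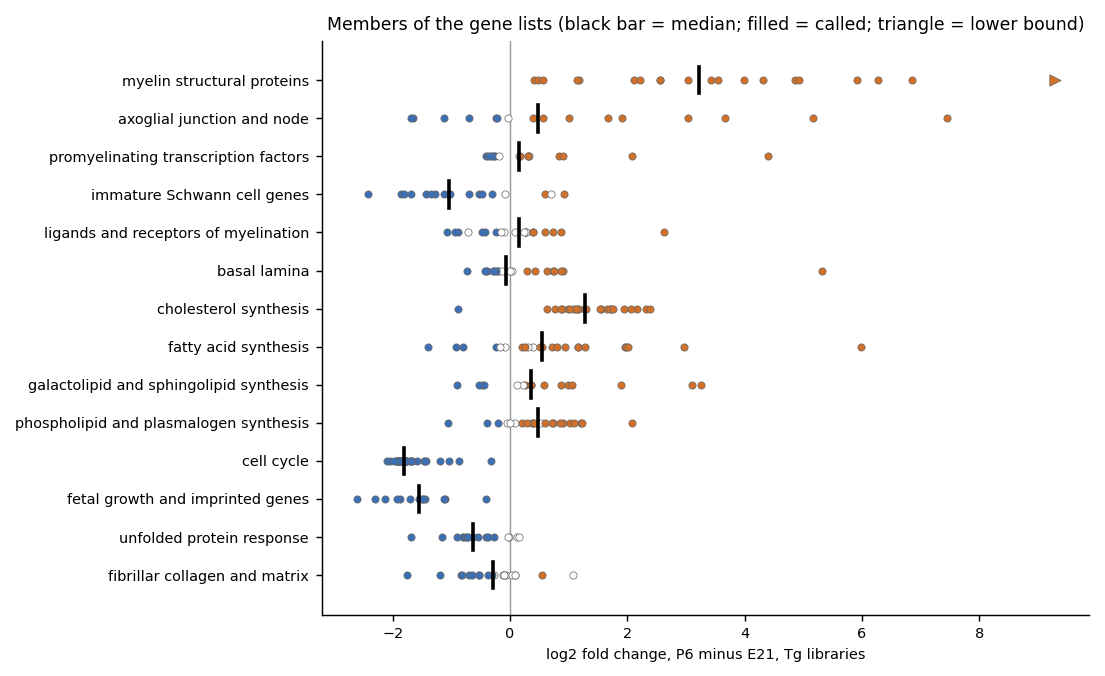
Log2 fold change from E21 to P6 in Tg of each tested member of 14 gene lists (points; filled where called, orange up and blue down; black bar, median; triangle, the lower bound of Ncmap). The medians run from -1.81 for the cell cycle to 3.23 for the myelin proteins, and the median over all tested genes was 0.0032.

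The other cells of the nerve moved in their own ways. For fibroblasts the summed level of 10 markers was 2386, 1643, 2627 and 2154 CPM at E21 and 2302, 1842, 2215 and 2063 CPM at P6, with Dcn the most abundant, and 1 rose, 5 fell and 4 were not called (median -0.27, or -0.42 without E21 replicate 2). Thy1, a surface marker of fibroblasts, fell without overlap (-0.74, SE 0.14), and Dcn, the proteoglycan decorin, rose with overlapping ages (0.44, SE 0.12; 0.28 without E21 replicate 2). Dpt, of the dermal matrix, was called lower (-0.75, SE 0.26) but not without E21 replicate 3 (-0.34). For the perineurium the sum of the markers was 661, 639.9, 623 and 688 CPM at E21 and 687, 644, 614 and 642 CPM at P6, led by Itgb4, which Schwann cells express as well. Of 9 tested perineurial markers 4 rose, 4 fell and 1 was not called (median -0.31), and the median was -0.55 without E21 replicate 1, -0.16 without E21 replicate 3, -0.067 without P6 replicate 1, -0.52 without P6 replicate 4 and 0.13 without E21 replicates 2 and 3. Moxd1, a monooxygenase, had 79.8, 77.1, 62.3 and 64.3 CPM at E21 and 7.42, 7.63, 9.82 and 8.41 CPM at P6, and fell furthest (log2 fold change -3.09, SE 0.18). The glucose carrier Slc2a1 was higher with overlapping ages (0.40, SE 0.11) and was not called without E21 replicates 2 and 3 (0.24), while Cldn1, of its tight junctions, fell (-0.60, SE 0.12).

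Endothelial markers fell slightly. Of 10 tested endothelial markers 7 fell, 1 rose and 2 were not called (median -0.31), and their sum was 799, 568, 798 and 659 CPM at E21 and 584, 572, 509 and 619 CPM at P6, with Cdh5 the most abundant. Tek, the angiopoietin receptor, fell furthest (-0.74, SE 0.13). The rise of Cldn5, a claudin of the blood-nerve barrier, from 6.2, 0.582, 13.9 and 5.29 CPM to 18.9, 12.6, 10.6 and 14.1 CPM, overlapped and was lost without E21 replicate 2 (0.68) and under 9 further alternatives, and went to 1.79 without E21 replicate 3. Of 10 markers of pericytes and smooth muscle 1 rose, 3 fell and 6 were not called (median -0.49, or -0.16 without E21 replicate 3 and -0.26 without E21 replicates 2 and 3), with sums of 822, 828, 1124 and 905 CPM at E21 and 795, 786, 729 and 867 CPM at P6 and Pdgfrb on top. Rgs5, of pericytes, was higher in every P6 library (0.40, SE 0.14) with E21 replicate 2 lowest, and was not called without that replicate (0.24).

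Among immune cells, mast cell genes rose. Of 9 tested mast cell markers 8 rose, 7 of them at least 2-fold and without overlap, and 1 was not called, with a median of 2.17. Their sum was 79.3, 36, 161 and 49.6 CPM at E21 and 199, 332, 383 and 369 CPM at P6, with the carboxypeptidase Cpa3 the most abundant. Tpsb2, a tryptase, had 4.08, 1.84, 11.3 and 2.46 CPM at E21 and 18.8, 33.7, 32.8 and 37.2 CPM at P6 (log2 fold change 2.62, SE 0.38; adjusted p = 3.8e-06 by edgeR), and the chymase Cma1 had 2.32 (SE 0.41). Of 16 macrophage markers 7 rose, 3 fell and 6 were not called (median 0.44), while their sum, 527, 391, 512 and 399 CPM at E21 and 374, 450.4, 545 and 562 CPM at P6 with Lyz2 the most abundant, overlapped between the ages. Adgre1, the surface protein F4/80, had 9.84, 6.35, 8.56 and 6.83 CPM at E21 and 13.5, 21.9, 26.7 and 32.5 CPM at P6 (log2 fold change 1.58, SE 0.19), and the scavenger receptor Cd163 had 20.9, 14.9, 22.2 and 18.9 CPM at E21 and 7.15, 8.76, 9.76 and 10.8 CPM at P6 (log2 fold change -1.07, SE 0.19). Neither gene overlapped between the ages, and they went opposite ways. The complement genes C1qb (-0.79, SE 0.15) and C1qc (-0.70, SE 0.19) fell, and the fractalkine receptor Cx3cr1 (1.30, SE 0.20) rose. Of 6 genes of the MHC class II list 5 fell and 1 was not called (median -0.91), from low sums of 48, 39.4, 26.7 and 26.3 CPM at E21 to 20.7, 15, 21.3 and 19.5 CPM at P6, with Cd74, the invariant chain, the most abundant. These genes may share reads with near-identical copies, so their levels are uncertain, and RT1-Bb (-0.81, SE 0.32) lost its call in 5 of the 8 fits that left out 1 library.

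Fat markers rose. All 10 tested adipocyte markers were higher at P6, at least 2-fold and without overlap, with sums of 127, 91.3, 119 and 109 CPM at E21 and 318, 455, 517 and 499.7 CPM at P6 and Fabp4, a fatty acid binding protein also found in endothelium, on top. Their median log2 fold change was 5.02, or 2.89 with genes of very few E21 counts set at their bounds. Plin1, the perilipin of fat droplets, had 2 counts over the E21 libraries and 36, 53.2, 55.7 and 58 CPM at P6, a ratio of 2000.4 with a counting interval of 553 to 16523. Retn, the hormone resistin, had 3 counts at E21 and 12.9, 17.3, 22.4 and 18.4 CPM at P6, a ratio of 459 with an interval of 157 to 2229. Lep, for leptin, had no count at E21 and was at least 5.92-fold higher, and Adipoq, for adiponectin, had 9.46, 12.5, 9.48 and 17.5 CPM at E21 and 71.7, 116, 142 and 123 CPM at P6. Floors and intervals cover counting error only, and Ucp1, of brown fat, was too low to test. The epineurium was removed before extraction, and the part of fat cells in the rises of Scd1 and other lipid genes was not tested.

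Erythroid markers fell, and so did muscle markers when all libraries were counted. Of 12 tested erythroid markers 11 were lower at P6, all 11 at least 2-fold and without overlap, and 1 was not called (median -3.51). Their sum was 39095, 21755, 47600.1 and 26951 CPM at E21 and 1733, 2219, 2759 and 4837 CPM at P6, with the globin Hba-a3 the most abundant. Hbe1, the embryonic globin, had 14.6, 8.97, 16.3 and 9.41 CPM at E21 and 2 counts over the P6 libraries, a ratio of 0.00201 with a counting interval of 2.43e-04 to 0.00729. The adult globin Hba-a2 had 9728, 5818, 12595 and 6762 CPM at E21 and 367, 530.4, 632 and 1102 CPM at P6 (log2 fold change -3.73, SE 0.76), but globin genes share reads among near-identical copies and their single levels are uncertain, and Ahsp, the chaperone of alpha globin, had 44.5, 21.6, 44.3 and 24.6 CPM at E21 and 0.919, 2.26, 2.25 and 4.53 CPM at P6 (log2 fold change -3.71, SE 0.38). Of 21 tested skeletal muscle markers 16 were called lower, each at least 2-fold, 0 rose and 5 were not called, yet for none of the 21 did the ages stand apart. Their median was -4.43 with all libraries, -2.18 without E21 replicate 2, and 0.50 without replicates 2 and 3. Myh3, the embryonic myosin heavy chain, had 0.816, 977, 176 and 3.26 CPM at E21 and 10.5, 0.271, 2.37 and 0.481 CPM at P6, so its log2 fold change of -6.58 (SE 1.85) rested on 2 libraries and turned to 0.56 without them. Ckm, the muscle creatine kinase, had -5.43 (SE 1.88) with all libraries and 1.24 without those 2, and the factor Myog had -7.65 (SE 1.83) and -2.07, no longer called. The call of Ckm was also lost without E21 replicate 2 alone (-2.84), without P6 replicate 2 (-5.02) or without P6 replicate 4 (-5.00). What these shifts in other cell types add to the other gene groups was not tested.

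**Figure D4:**
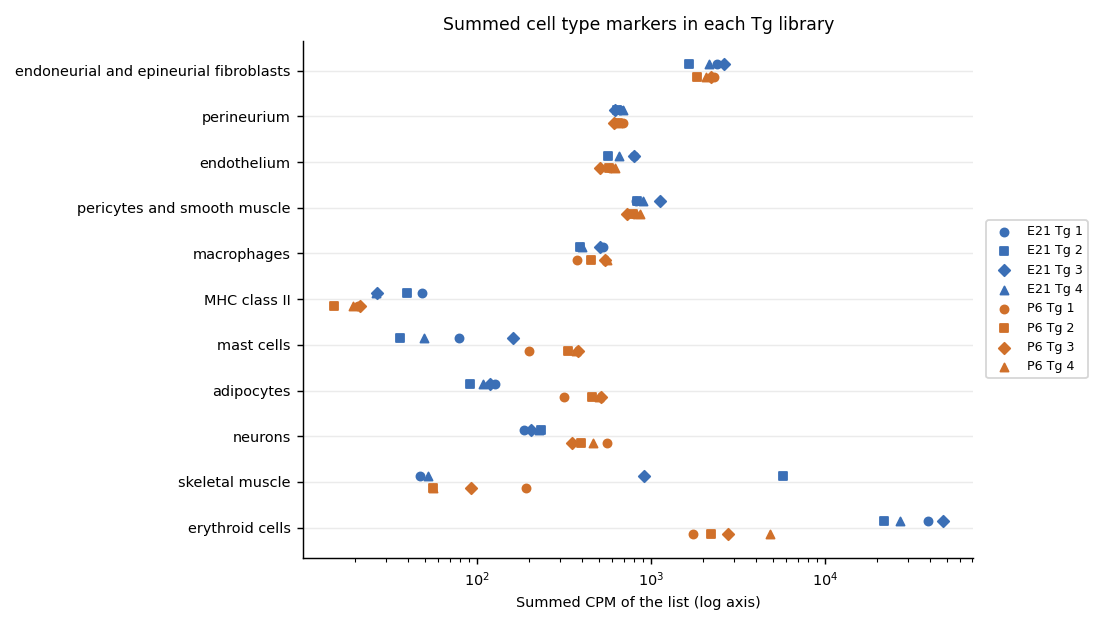
Summed CPM of the markers of 11 cell types in each Tg library on a log axis (blue, E21; orange, P6; the shape gives the replicate). Mast cell markers rise (36 to 161 against 199 to 383 CPM), erythroid markers fall (21755 to 47600.1 against 1733 to 4837 CPM), and the muscle markers of E21 replicates 2 and 3 stand apart.

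The genes with the largest changes of all were taken among those called without overlap whose mean normalized count reached 50. The 10 highest, with Ncmap the only one of the myelin protein list, were LOC100360791, Ncmap, Plin1, Kcna1, Slc36a2, Pon1, Mrap, Rasgef1a, Marveld3 and LOC300308. Kcna1, a potassium channel of the juxtaparanode, had 1 count over the E21 libraries, in replicate 2, and 29.1, 26, 21.3 and 28.4 CPM at P6, a ratio of 2029 with a counting interval of 364 to 80174. Slc36a2, a carrier of small amino acids, had 0.0544, 0.145, 0.046 and 0.123 CPM at E21 and 129.5, 104, 106 and 106 CPM at P6, with P6 replicate 1 highest. Mrap, the accessory protein of the corticotropin receptor, had 0.272, 0.145, 0.322 and 0.123 CPM at E21 and 59.4, 102, 127 and 139 CPM at P6 (log2 fold change 8.87, SE 0.43), and Rasgef1a, an exchange factor of Ras, had 0.163, 0.0485, 0 and 0.0615 CPM at E21 and 56.3, 24, 19.4 and 22.2 CPM at P6, again highest in P6 replicate 1. Pon1, a paraoxonase, and Marveld3, of tight junctions, each had 1 count at E21, in replicate 1, with ratios of 931 (interval 167 to 36804) and 630.2 (113 to 24930.1). LOC300308 had 1 count at E21 in replicate 3 and a ratio of 579.96 (104 to 22945), and LOC100360791 had none and was at least 1139-fold higher. The reads of both may be shared with near-identical genes, so their levels are uncertain.

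The 10 lowest were Hbe1, Crabp1, Ky, Ppp1r1c, Txlnb, RGD1566029, Rbfox1, Mmrn1, Kel and Hba-a2. Crabp1, which binds retinoic acid in the cytosol, had 132, 78.3, 95.2 and 80.9 CPM at E21 and 1.25, 1.04, 0.924 and 0.881 CPM at P6 (log2 fold change -6.57, SE 0.20; adjusted p = 1.7e-17 by edgeR). Ppp1r1c, an inhibitor of protein phosphatase 1, had 50.1, 26.8, 27 and 32.7 CPM at E21 and 0.788, 0.858, 1.27 and 0.721 CPM at P6 (log2 fold change -5.23, SE 0.23). These 2 were lower in every P6 library by a wide margin. Ky, Txlnb, RGD1566029 and Rbfox1 were high in E21 replicate 2: Ky, a protein of muscle, had 0.272, 23.8, 1.93 and 0.246 CPM at E21 and 0.197, 0.0903, 0.116 and 0.24 CPM at P6, Txlnb, the muscle taxilin, had 0.707, 22.7, 2.85 and 0.431 CPM at E21, RGD1566029 had 2.18, 24.1, 4.003 and 2.15 and Rbfox1, a splicing factor of muscle and neurons, had 1.63, 26.6, 3.77 and 1.17. Without E21 replicates 2 and 3 their log2 fold changes went from -5.28 to -0.69 for Ky, from -4.51 to -1.01 for Txlnb and from -4.11 to -1.58 for Rbfox1, all no longer called, and from -4.41 to -2.55 for RGD1566029, still called. Kel, of the red cell surface, had 18.5, 7.13, 15.1 and 6.83 CPM at E21 and 0.328, 0.722, 0.751 and 1.36 CPM at P6 (log2 fold change -3.85, SE 0.51), and Mmrn1, of platelets and endothelium, had 17, 1.75, 20 and 12.1 CPM at E21 and 1.12, 0.768, 0.693 and 0.841 CPM at P6, with E21 replicate 2 closest to the P6 libraries (log2 fold change -3.90, SE 0.71).

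The step was compared with that of the Wt nerve, which shares no library with it. In Wt, 4448 of 15951 tested genes (27.9%) were higher at P6 and 4511 (28.3%) lower. Of the 8647 genes called in Tg 86.6% were called in Wt with the same sign, which was 83.6% of the 8959 called in Wt, and 9 genes were called with opposite signs. The test of the difference between the steps, Tg minus Wt, passed for 0 of 15951 genes (0%) by edgeR's quasi-likelihood test after Benjamini-Hochberg adjustment, against 854 (5.35%) with an unadjusted p under 0.05, where chance gives about 798. DESeq2 called 35, against 932 unadjusted. Among the 35 are fitted differences far larger than the rest, those of LOC100362149 and LOC100359951 (both 27.3), Aldh18a1 (-47.7), A2m (24.8) and Cbr1 (24.8). Some gene models among them have the same values, such as AABR07015066.1 and AABR07015078.1 (both -3.43), so the 35 are not all distinct. So the named differences below are given with their intervals, and none passed edgeR's adjusted threshold. All intervals of differences are unadjusted for the number and choice of genes. Of the 854 genes 551 had a difference below 0.

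The myelin and cholesterol lists leaned the same way. Of 20 myelin protein genes 16 had a difference below 0, where 48.8% of all tested genes did, and all 9 of them with an unadjusted p under 0.05 lay below 0. The median step was 3.23 in Tg and 3.41 in Wt. Mbp differed by -0.48 (95% interval -0.80 to -0.16) and Pmp22 by -0.15 (-0.36 to 0.054). The interval of Pmp22 spans 0, and how much of the transgene's RNA its counts take in was not tested. Of 24 cholesterol genes 20 had a difference below 0, among them all 7 with an unadjusted p under 0.05, and the median step was 1.28 in Tg and 1.52 in Wt. Ugt8 differed by -0.54 (-0.85 to -0.23) and Fa2h by -0.33 (-0.52 to -0.14). For the cell cycle 0 of 33 differences lay below 0, 5 of them had an unadjusted p under 0.05, and the median fall was -1.81 in Tg and -1.94 in Wt. In the basal lamina 17 of 20 differences lay below 0, and the median was -0.064 in Tg and 0.16 in Wt. Phospholipid and plasmalogen synthesis had 18 of 22 below 0, 0 of them with an unadjusted p under 0.05. Ligands and receptors had 14 of 20 below 0, but only 2 of their 5 with an unadjusted p under 0.05. Their median difference was -0.065, while their median step was 0.16 in Tg and -0.051 in Wt. The galactolipid and transcription factor lists each had 12 of 16. Fewer lay below 0 in the unfolded protein response, 4 of 17, and in the fibrillar matrix, 8 of 20. Erythroid markers had medians of -3.51 in Tg and -3.46 in Wt, and macrophage markers of 0.44 and 0.049. Of the 16 macrophage differences 1 lay below 0, and their median was 0.30. Of the MHC class II differences 6 of 6 lay below 0, 2 of them with an unadjusted p under 0.05, and their median was -0.81. Perineurial markers had 6 of 9 below 0, 0 with an unadjusted p under 0.05, and a median difference of -0.082. Their median step was -0.31 in Tg and 0.69 in Wt. Of the adipocyte differences 0 of 10 lay below 0 and 1 had an unadjusted p under 0.05, with a median difference of 1.12. The median step was 5.02 in Tg, or 2.89 with the bounds given above, and 3.54 in Wt, where no bounds were set. Which genotype had the larger median therefore cannot be told. The part of these cell types in the differences was not tested.

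The 5 genes with the smallest p for the difference were Micall1, Nmnat2, Hmgb1, Csrp2 and Ebp. They were picked by that p, so their intervals lie clear of 0 by choice and their differences may be too large. Micall1, which acts in endosome recycling, had 233, 229, 205 and 242 CPM at E21 and 202, 203, 171 and 191 CPM at P6 (log2 fold change -0.24 in Tg and 0.23 in Wt; difference -0.48, interval -0.64 to -0.31; adjusted p = 0.0938 by edgeR). Nmnat2, the enzyme that keeps axons supplied with NAD, had 2.56, 1.65, 2.12 and 1.91 CPM at E21 and 8.53, 5.87, 6.93 and 5.61 CPM at P6 (1.70 in Tg and 2.999 in Wt; difference -1.30, interval -1.81 to -0.79). The axon enzyme rose in both genotypes and the endosome protein fell in Tg. Hmgb1, a chromatin protein, went from a range of 14.8 to 25.5 CPM at E21 to one of 9.45 to 11.8 CPM at P6 with E21 replicate 4 highest (-0.79 in Tg and 0.39 in Wt; difference -1.18, interval -1.67 to -0.70). Csrp2, a LIM protein of smooth muscle, had 54.8, 51.7, 58.8 and 55.7 CPM at E21 and 380.2, 407, 422 and 441 CPM at P6 and was the only one of the 5 with a difference above 0 (2.90 against 2.30; difference 0.60, interval 0.35 to 0.84). Ebp, the sterol isomerase of cholesterol synthesis, had 14.6, 12.6, 13 and 12.5 CPM at E21 and 21.1, 22.5, 21.9 and 24.5 CPM at P6 (0.77 in Tg and 1.23 in Wt; difference -0.46, interval -0.65 to -0.26; adjusted p = 0.191 by edgeR). All 5 were among the 35 genes that DESeq2 called, and none of them passed by edgeR with all libraries.

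**Figure D5:**
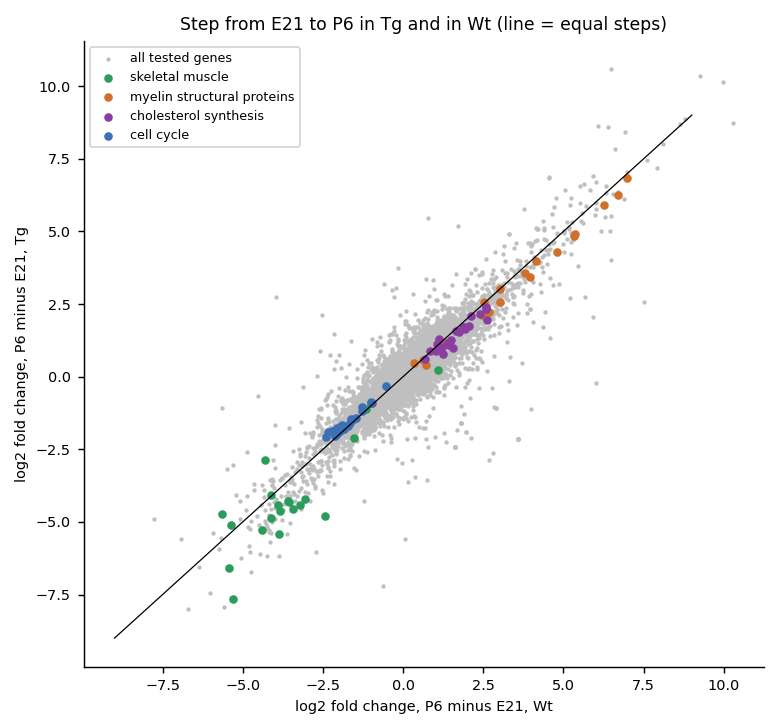
Log2 fold change from E21 to P6 in Wt (horizontal) and in Tg (vertical), a point per tested gene that had a count in every group, with 4 gene lists in colour and a line where the steps are equal. Of all 15951 tested genes, drawn or not, 7487 were called in both with the same sign, and 16 of the 19 myelin protein genes drawn have a difference below 0, under the line.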

How the data were processed

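Sciatic nerve RNA of Wt and Tg rats was sequenced with 4 libraries per genotype and age, and the labels gave each library's group. The authors made reads with CASAVA 1.8.2, aligned them to rn6 with Bowtie2 2.0.2 within RSEM 1.2.29, and deposited expected counts for 32402 genes, which split a read with several possible genes between these. These values were rounded to whole counts, and 0 columns were left out.

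Genes whose mean normalized count over 24 libraries reached 5 (15951) were tested with edgeR 4.0.16 (limma 3.58.1, R 4.3.3): TMM factors before the filter, 1 model of 6 groups, the quasi-likelihood F test, and Benjamini-Hochberg adjustment over all tested genes with a threshold of 0.05. A second rule also asked for an absolute log2 fold change of at least 1. The p-values measure the spread between libraries. Contrasts were P6 minus E21 in Tg, the same in Wt, and their difference with 95% intervals. SE was the log2 fold change divided by the root of F. Where a group had 0 counts, folds are lower bounds against a floor of 3 counts per library, and where it had 1 to 3 summed counts the ratio has a Poisson counting interval. Depth per library is given at the opening and limits genes of a few counts most.

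The members and lists were chosen with earlier results of these data known. Lists covered myelin proteins, axoglial junctions, transcription factors, immature Schwann cells, ligands and receptors, basal lamina, 4 groups of lipid synthesis, cell cycle, fetal growth, unfolded protein response, matrix, markers of 12 cell types, and Y-linked genes. Named with full statistics were Pmp22, Hspg2 and AC130064.1, up to 3 highest and 3 lowest called members of each list whose mean normalized count reached 50, a fixed set (Mbp, Egr2, Pou3f1, Sox2, Jun, Ngfr, Hmgcs1, Fasn, Ugt8, Igf2, Mki67), the 10 highest and 10 lowest changes without overlap, and the 5 smallest p-values of the difference. Other members are named with their list, and some members counted in the lists are not reported singly here.

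Alternatives were DESeq2 1.42.0, its size factors, library totals, TMM without muscle genes, no count filter, a mean of at least 50, only the libraries of the contrast, a replicate block and leaving out each library. Fits without E21 replicates 2 and 3 (Tg) and 2 and 4 (Wt), and TMM after the filter, were chosen after seeing the data. The count tests were tested on simulated data, with no outcome given here. No library was a copy of another, since the chi-square per degree of freedom over all 276 pairs of the 24 libraries ran from 6.76 to 573. Promoters were searched in Python 3.11.15, and plots drawn with matplotlib 3.10.9.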

Additional observations from a re-analysis of the deposited data

Results flagged for a closer look

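In groups of 4 libraries, a value was marked when its gap to the nearest other value took up most of the group's range. Of 344 such groups 28 were marked, 24 of genes, 4 of list sums and 0 of library totals. Chance marks about 1 in 20 groups, but 4 of the 28 were 1 count beside 3 zeros, which the rule always marks, and some genes were chosen for their large changes, so the 2 shares cannot be compared. E21 Tg replicate 2 gave 9 of them, replicate 3 gave 7, replicate 1 gave 3 and replicate 4 gave 2, and at P6 replicate 1 gave 5 and replicates 2 and 3 gave 1 each.

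In E21 replicate 2, high values were those of the skeletal muscle list with a sum of 5725 CPM, and of Myog (41.0 CPM), Ckm (244 CPM), Ky (23.8 CPM), Txlnb (22.7 CPM), RGD1566029 (24.1 CPM) and Rbfox1 (26.6 CPM). Rgs5 was low there at 28.6 CPM, and Kcna1 had its single E21 count, 0.0485 CPM. In E21 replicate 3, Adgrg6 was low at 262 CPM, Stmn2 at 11.1 CPM and the sums of fatty acid synthesis at 4382 CPM, of galactolipid and sphingolipid synthesis at 857 CPM and of immature Schwann cell genes at 2702 CPM, Prph was high at 11.6 CPM, and LOC300308 had its single count, 0.0460 CPM. In E21 replicate 1, Pcyt1b was high at 6.25 CPM, and Pon1 and Marveld3 had their single counts, each 0.0544 CPM. In E21 replicate 4, Igf2bp1 was low at 3.998 CPM and Hmgb1 high at 25.5 CPM. At P6, replicate 1 was low for Scd1 (42.3 CPM), Gnpat (63.1 CPM) and Nefh (3.61 CPM) and high for Slc36a2 (129.5 CPM) and Rasgef1a (56.3 CPM), replicate 2 was high for RGD1566029 (0.587 CPM), and replicate 3 was high for RT1-Bb (3.35 CPM). What set these values apart was not tested.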

How the results depend on the processing

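The step in Tg kept its count within 1.5 times under every alternative: 8647 genes as reported, 7995 to 8273 when 1 library was left out, 8561 with a replicate block, 7288 without E21 replicates 2 and 3, and 7606 to 9017 under the others. The 8959 of Wt went to 8344 to 8626 when 1 library was left out and to 8916 with a replicate block, and lay from 7455 to 9405 over all alternatives. The count at least 2-fold, 2742, went to 1778 under a filter at a mean normalized count of 50, where fewer genes were tested, and to 2564 to 2707 when 1 library was left out. Library totals in place of TMM moved the median of all genes to -0.0525. The split of 4221 genes higher and 4426 lower went to 3760 and 4904 with library totals and to 4007 and 4767 with TMM after the filter, and more were higher than lower with only the libraries of the contrast (4619 and 4398) and without P6 Tg replicate 1 (4102 and 4067).

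The count of 0 for the difference between the steps went to 35 with DESeq2, to 25 with only the libraries of the contrast, and to between 0 and 3 when 1 library was left out; the cause was not tested. It stayed at 0 with the replicate block and without the 4 E21 libraries with the most muscle signal. Equal replicate numbers do not pair libraries of the 2 ages: their correlations were -0.148, -0.0397, -0.00328 and 0.0206.

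Signs turned for Sox2, which ranged over -0.20 to 0.013 when 1 library was left out (0.013 without P6 Tg replicate 4), and, without E21 Tg replicates 2 and 3, for Myh3 (0.56), Ckm (1.24) and the medians of perineurium (0.13) and skeletal muscle (0.50). The cause was not tested. With the replicate block Ckm had -4.66 and was not called. Depth limits genes with few counts at 1 age. Their folds are bounds where that age had 0 counts and ratios with counting intervals where it had 1 to 3 summed counts.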

Other observations

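Genes of the axon itself went in both directions, although the cell bodies of the neurons lie outside the nerve. Of 10 tested neuron markers 3 rose, 5 fell and 2 were not called, with a median log2 fold change of -0.48 and sums of 185, 232, 205 and 226 CPM at E21 and 556, 398, 352 and 465 CPM at P6, with Nefl the most abundant. The neurofilament genes rose: Nefm had 20, 26.5, 23.4 and 24 CPM at E21 and 218, 140.1, 116 and 186 CPM at P6 (log2 fold change 2.81, SE 0.22; adjusted p = 2.8e-10 by edgeR), and Nefl had 24.3, 41.7, 29.7 and 33.3 CPM at E21 and 251, 149, 126 and 195 CPM at P6 (log2 fold change 2.48, SE 0.24). Both were higher in every P6 library than in any E21 library. Nefh, the heavy subunit, went from a range of 1.74 to 3.83 CPM at E21 to one of 3.61 to 8.08 CPM at P6 with overlap (log2 fold change 1.14, SE 0.29). The falls were those of Uchl1, a ubiquitin hydrolase of neurons (-1.69, SE 0.19), of the intermediate filament Prph (-0.94, SE 0.24), of Stmn2, which acts on microtubules in growing axons (-0.79, SE 0.23), of the RNA-binding protein Elavl4 (-1.37) and of the sodium channel Scn9a (-0.70), all without overlap.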
